A study of Mus musculus with 4 samples.

Results

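The GIMAP genes (GTPases of immunity associated proteins) were examined in mouse haematopoietic stem cells (HSC) with and without the retinoblastoma family. The members are Gimap1, Gimap3, Gimap4, Gimap5, Gimap6, Gimap7, Gimap8 and Gimap9, all 8 of which had a value among the 18193 genes measured. They were chosen by gene symbol, from 11 probe sets that the array annotation assigns to exactly 1 gene, and the probe set selected by the highest mean over all 4 arrays stands for each gene. The family was put forward with the differences of the same contrast known, Gimap8 having already stood out among the genes with lower values. The differences of the members are therefore given as a description, and nothing is read from a test on them.

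Expression was measured on 4 Affymetrix arrays, each from a pool of 3 mice, and every pool held stem cells sorted by flow cytometry as KLS, CD48- and CD150+. In 2 pools the mice were Rb family deficient, labelled Rb -/-, p130 -/- and p107-/-. The other 2 pools are called wild type, labelled Rb +/+ and p130 +/+, but these mice carry p107-/- as well, so the contrast is loss of Rb and p130 on a background that lacks p107. Tamoxifen started recombination in adult mice, and cells were taken 2 weeks later. The Cre driver and the age and sex of the animals are unstated in the labels. Nothing states that the pools of a group came from separate litters or days, so no standard error takes in spread beyond these pools. Each standard error is moderated by limma, which draws in part on the spread of all genes. It can be wider or narrower than a gene's own pools would give.

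GIMAP proteins bind GTP through a domain first described in the plant protein AIG1. Many of them sit on membranes of the endoplasmic reticulum, mitochondria, Golgi or lysosomes. They are known mostly from lymphocytes, where they govern survival during development and in the periphery, and Gimap5 is also needed for the survival of stem and progenitor cells in mice. Their genes stand side by side in a single cluster. In the RefSeq gene table (GRCm38.p6) the order along chromosome 6 is Gimap8, Gimap9, Gimap4, Gimap6, Gimap7, Gimap1, Gimap5 and Gimap3, with no other protein-coding gene between them.

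The 8 GIMAP genes all had a lower mean in the deficient pools, where 50.8% of all genes did. Their log2 differences ran from -1.14 to -0.26, with a median difference of -0.64 (1.56-fold lower). The median over all genes was -0.00376. Both deficient pools lay below both wild type pools for 7 of the 8 members, and Gimap3 was the exception. Over all genes 18.5% had that arrangement. At an unadjusted p under 0.05 limma had 6 of the 8 members lower, where 4.04% of all genes were lower by that rule, and 0 members higher, where 2.19% of all genes were. A difference of at least 1.5-fold lower was seen for 5 members and for 3.03% of all genes. After Benjamini-Hochberg adjustment over all genes limma called 0.0% of genes higher and 0.0% lower, and the members had an adjusted p between 0.761 and 0.876. With an unadjusted p under 0.05, 399 genes were higher and 735 lower, a split of 297 and 1015 with median centring and of 524 and 534 with quantile normalization repeated. An exact permutation test of 2 pools against 2 cannot give a two-sided p below 0.333.

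**Figure D1:**
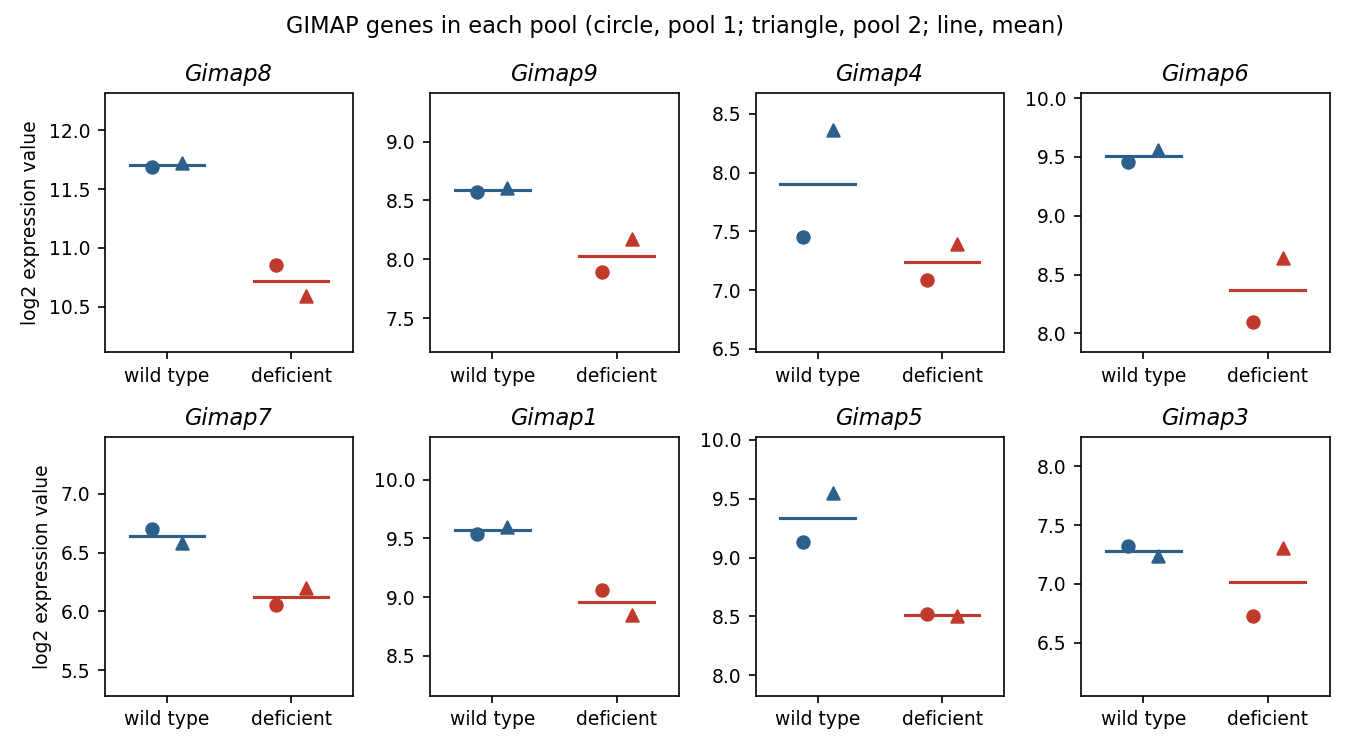
Log2 expression value (vertical axis, RMA units) of each GIMAP gene in the 2 wild type pools (blue) and the 2 Rb family deficient pools (red), 1 point per pool with a line at the group mean, each panel spanning the same log2 range. The groups do not overlap for 7 genes, and for Gimap3 deficient pool 2 lies level with the wild type pools.

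Gimap8 encodes the longest protein of the family, with several GTP-binding domains in a row. In log2 units it measured 10.85 and 10.59 in Rb family deficient HSC and 11.69 and 11.72 in wild type HSC. The lowest wild type pool stood 0.84 above the highest deficient pool, and the wild type pools were 0.04 apart. The mean was 1.98-fold lower in the deficient pools (log2 difference -0.99, SE 0.16, n = 2 pools per group). Gimap6 encodes a protein linked to autophagy through its binding to GABARAP-type proteins. Its log2 levels were 8.10 and 8.64 in deficient HSC, below 9.46 and 9.56 in wild type HSC. It had the lowest log2 difference of the members, at 2.21-fold lower (-1.14, SE 0.22), and here the deficient pools were 0.55 apart, pool 2 the higher.

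Loss of Gimap5 or of Gimap1 in mice depletes mature lymphocytes. Gimap5 measured 8.52 and 8.50 in deficient HSC and 9.13 and 9.55 in wild type HSC, in log2 units. The deficient pools differed by 0.02 and the wild type pools by 0.42, so the spread lay in the wild type group. The mean was 1.77-fold lower (log2 difference -0.82, SE 0.19). Gimap1 levels of 9.06 and 8.85 in deficient HSC compared with 9.54 and 9.60 in wild type HSC, 1.53-fold lower (-0.61, SE 0.15). The groups stood 0.48 apart at their closest.

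Gimap3, a close relative of Gimap5 that lies next to it in the cluster, had the smallest difference. It measured 6.73 and 7.31 in deficient HSC and 7.32 and 7.24 in wild type HSC, in log2 units. Deficient pool 2 lay between the wild type pools, and only deficient pool 1 was lower. The difference was -0.26 (SE 0.23) and became 0.03 without deficient pool 1, or -0.55 without deficient pool 2. The 95% interval of the difference, from -0.84 to 0.32, takes in both no difference and one as large as that of Gimap5.

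Gimap4, which is tied to the pace of cell death in T cells, had the widest spread between wild type pools. It measured 7.09 and 7.39 in deficient HSC and 7.45 and 8.36 in wild type HSC. The groups stood only 0.06 apart at their closest, and wild type pool 2 was 0.91 above wild type pool 1. The difference was -0.66 (SE 0.33), or -0.21 without wild type pool 2 and -1.12 without wild type pool 1. The dimmer probe set of Gimap4, whose name carries no _s_at mark for shared sequence, was tighter. Both deficient pools read 6.04 on it and the wild type pools 6.41 and 6.49, which gives -0.41 (SE 0.14) for the log2 difference.

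Gimap9 and Gimap7 are less well characterised members. Gimap9 measured 7.89 and 8.17 in deficient HSC and 8.57 and 8.61 in wild type HSC, 1.48-fold lower (log2 difference -0.56, SE 0.16). Gimap7 measured 6.05 and 6.20 in deficient HSC and 6.70 and 6.58 in wild type HSC, 1.43-fold lower (-0.52, SE 0.15). Neither gene overlapped between the groups, with gaps of 0.40 and 0.38.

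Among the 11 probe sets of the family, 9 were lower in the deficient pools and 8 had no overlap between the groups in that direction. Over all genes, at 1 probe set each, 18.5% were lower without overlap and 17.0% higher. The share over all probe sets was not computed. For 5 members there was only 1 probe set. Of the 3 members with 2 probe sets, Gimap4 had both lower. Gimap6 and Gimap7 each had a second probe set that did not follow the first. The second Gimap6 probe set read 8.68 and 8.32 in deficient HSC and 8.15 and 8.80 in wild type HSC, which overlap, with a log2 difference of 0.03 (SE 0.27). The second Gimap7 probe set was higher in both deficient pools, at 5.42 and 5.58, than in both wild type pools, at 5.05 and 5.10 (log2 difference 0.42, SE 0.14). It was dim, below the array medians of 5.94 to 6.02 in every pool, and the first Gimap7 probe set, at 6.05 to 6.70, was only a little above them. Averaged over both probe sets, Gimap6 differed by -0.56 and Gimap7 by -0.05. Which transcripts or exons the discordant probe sets read is unstated in the annotation used.

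**Figure D2:**
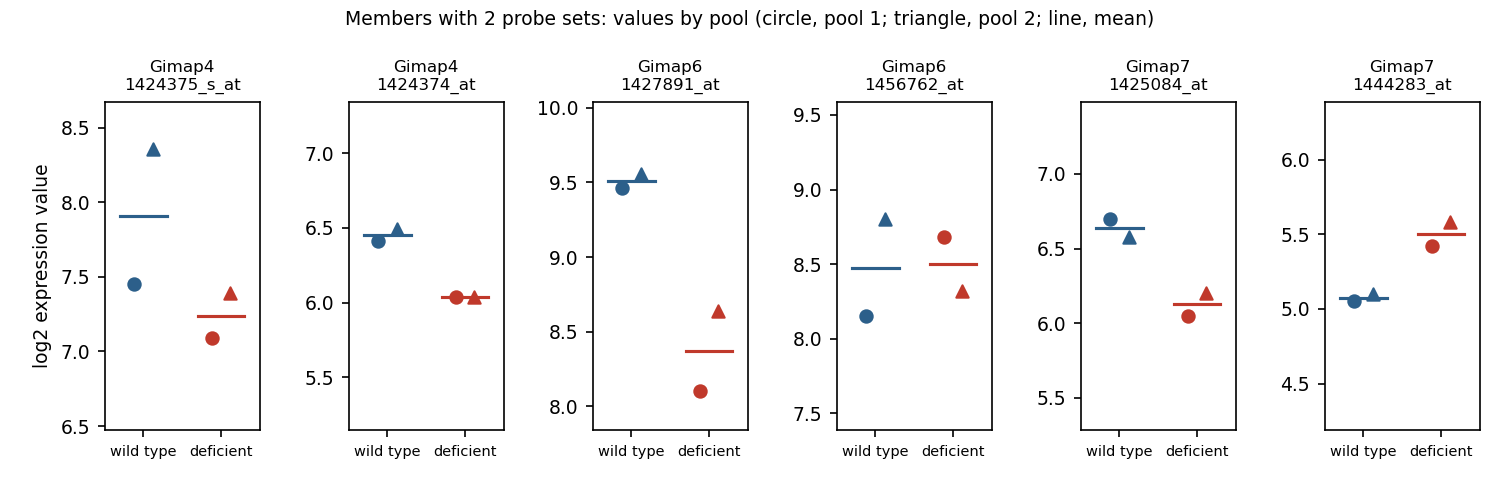
Log2 expression value (vertical axis) by pool for both probe sets of Gimap4, Gimap6 and Gimap7, with wild type pools in blue, deficient pools in red and a line at each group mean. The left panel of each pair is the probe set with the higher mean over the 4 arrays, and the second Gimap7 probe set is the only one with both deficient pools above both wild type pools.

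For most members the size of the difference did not rest on a single pool. With each pool left out in turn, Gimap8 ran from -1.12 to -0.86, Gimap6 from -1.42 to -0.87, Gimap5 from -1.04 to -0.61, Gimap1 from -0.72 to -0.51, Gimap7 from -0.60 to -0.44 and Gimap9 from -0.71 to -0.42. Only Gimap3 crossed 0. The groups of the other 7 members did not overlap, so leaving out a pool could not turn their sign. Gimap3 and Gimap4 moved by over 1.5 times.

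**Figure D3:**
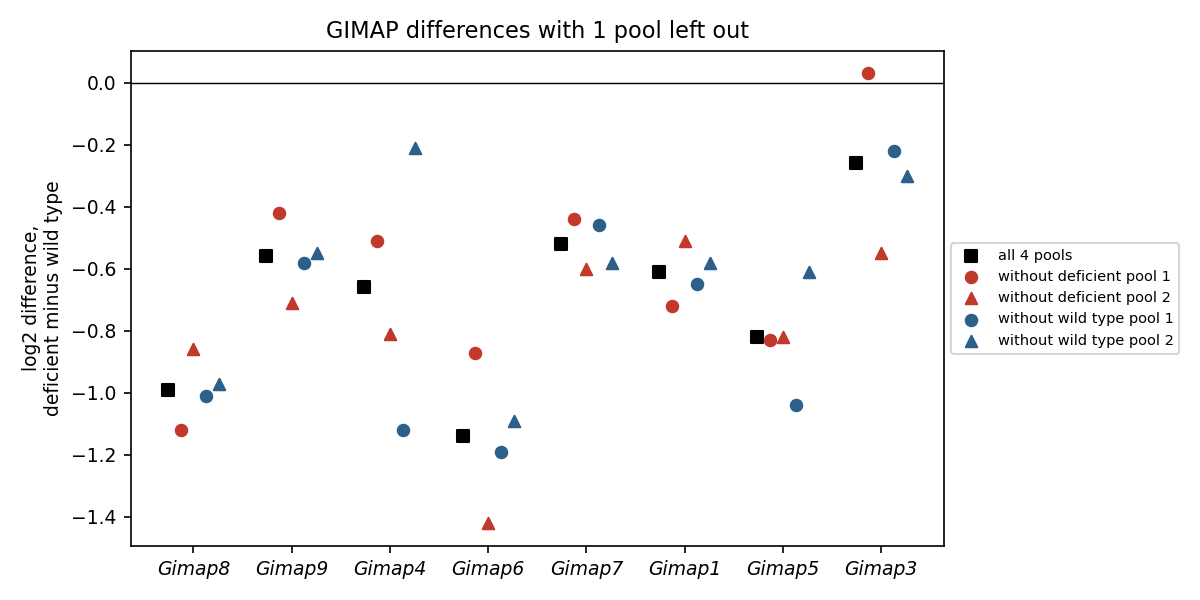
Log2 difference, deficient minus wild type (vertical axis), of each GIMAP gene with all 4 pools (black square) and with 1 pool left out (coloured symbols). All points lie below 0 except Gimap3 without deficient pool 1, at 0.03. For the other genes the groups do not overlap, so no point could cross 0. The Gimap4 points are the most scattered, from -1.12 to -0.21.

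Because the members are neighbours, the genes around the cluster were described by the same contrast, as 15 protein-coding genes on each side in the order of the gene table. Of these 30 genes 26 had a value, 15 above 0 and 11 below 0, with a median difference of 0.03 that ran from -0.02 to 0.08 with a pool left out. The deficient pools lay below the wild type pools for 6 of the 26 and above them for 4. Over all genes the shares were 18.5% and 17.0%. On the side of Gimap8 the nearest named genes with a value were the zinc finger genes Zfp775 (log2 difference -0.30, SE 0.31) and Repin1 (0.04, SE 0.16), the chemerin gene Rarres2 (0.16, SE 0.17), Lrrc61 (0.32, SE 0.16) and Atp6v0e2, a subunit gene of the vacuolar proton pump (0.09, SE 0.20). On the side of Gimap3 they were the membrane protein genes Tmem176b (-0.13, SE 0.14) and Tmem176a (0.11, SE 0.14), the amine oxidase genes Aoc1 (0.03, SE 0.15) and Doxl1 (0.03, SE 0.16), and Gpnmb (0.20, SE 0.21). Of these 10, Zfp775, Repin1, Rarres2, Atp6v0e2, Aoc1, Doxl1 and Gpnmb changed sign when some pool was left out. By limma none of the 10 passed over all genes, with an adjusted p of at least 0.812 for each.

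Directly beyond Gimap3, the 95% interval of the difference was -0.49 to 0.23 for Tmem176b and -0.25 to 0.47 for the brightest Tmem176a probe set. The other Tmem176a probe sets lay lower in both deficient pools, with log2 differences of -0.45 (95% interval -0.92 to 0.01) and -0.26 (-0.67 to 0.15). Both of these intervals take in the GIMAP median of -0.64, and the mean of the 3 probe sets differed by -0.20. Within the neighbourhood 1 gene lay below the GIMAP median of -0.64, the zinc finger gene Zfp467. Zfp467 lies 8 protein-coding genes before Gimap8 and was picked out after its values were seen. It measured 8.16 in both deficient pools and 9.36 and 9.10 in wild type HSC (log2 difference -1.07, SE 0.16, limma adjusted p = 0.761). Both other Zfp467 probe sets were lower too, with log2 differences of -1.13 (SE 0.30) and -0.56 (SE 0.14). The 7 genes between Zfp467 and Gimap8 had differences from -0.30 to 0.32 where they had a value. On the far side Tra2a, also chosen after its values were seen, differed by -0.34 (SE 0.21), with its groups 0.08 apart at their closest. Both Tra2a and Zfp775 (-0.30) lay lower than Gimap3 (-0.26). Fam221a, on the same side as Tra2a and chosen in the same way, was the highest of the neighbours at 0.59 (SE 0.23, limma adjusted p = 0.792).

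**Figure D4:**
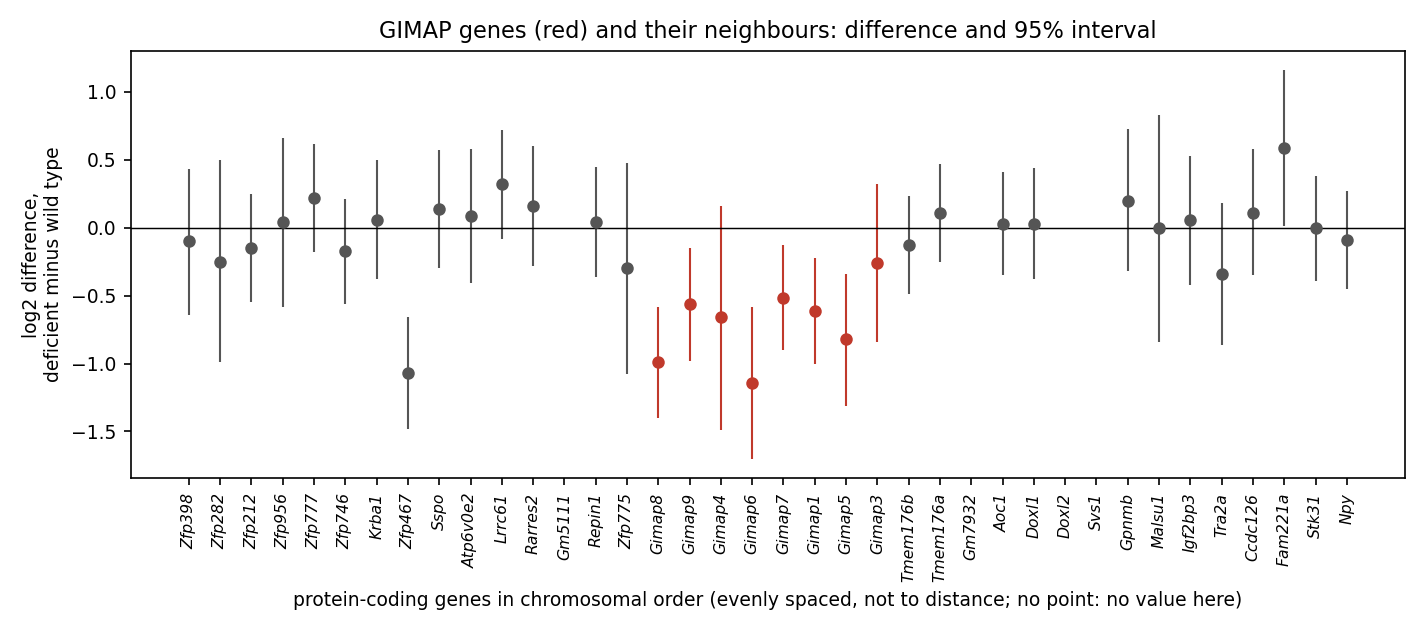
Log2 difference, deficient minus wild type, with its 95% interval from limma (vertical axis) for the 8 GIMAP genes (red) and 15 protein-coding genes on each side (grey) in chromosomal order. The red points all lie below 0, the grey points lie between -0.34 and 0.32 except Zfp467 at -1.07 and Fam221a at 0.59.

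The sequence ahead of each start site was taken from RefSeq (GRCm38.p6) to set members whose values lay together beside the member whose groups overlapped. All 8 members had an entry, and 250 bases before the first listed start were searched on both strands. The motifs were GGAAGT for the ETS core, TGTGGT for the RUNX core, AGATAA for the GATA core, CAGNTG for the E-box, TTCNNNGAA for the STAT site and TTTGAA for the cell cycle element CHR. The interferon element of the ISRE type was searched too, and the E2F site in 4 spellings, TTTGGCGC, TTTCCCGC, TTTCGCGC and TTTGCCGC. Gimap8, Gimap6 and Gimap5 are shown as the members with the lowest differences and Gimap3 for contrast, 5′ to 3′ on the strand of the gene, with motif matches in capitals. The Gimap8 stretch is chr6:48646984-48647185 on the plus strand, shortened to 202 bases because another Gimap8 transcript starts inside the window. The Gimap6 window is chr6:48708245-48708494 on the minus strand, that of Gimap5 chr6:48745947-48746196 on the plus strand, and that of Gimap3 chr6:48770852-48771101 on the minus strand.
Gimap8: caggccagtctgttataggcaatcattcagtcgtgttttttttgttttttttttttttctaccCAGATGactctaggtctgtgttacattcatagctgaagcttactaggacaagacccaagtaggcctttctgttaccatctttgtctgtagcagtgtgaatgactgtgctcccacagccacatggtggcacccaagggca
Gimap6: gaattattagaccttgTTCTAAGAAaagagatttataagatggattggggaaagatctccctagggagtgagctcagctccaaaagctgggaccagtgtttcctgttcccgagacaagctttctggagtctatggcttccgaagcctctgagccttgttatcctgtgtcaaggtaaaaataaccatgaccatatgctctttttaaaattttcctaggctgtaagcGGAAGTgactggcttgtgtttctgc
Gimap5: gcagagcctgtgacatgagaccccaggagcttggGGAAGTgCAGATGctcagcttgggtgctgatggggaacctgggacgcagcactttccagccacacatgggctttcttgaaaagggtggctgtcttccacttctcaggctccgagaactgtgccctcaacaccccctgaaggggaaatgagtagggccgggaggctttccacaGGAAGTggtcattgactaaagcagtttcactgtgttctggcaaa
Gimap3: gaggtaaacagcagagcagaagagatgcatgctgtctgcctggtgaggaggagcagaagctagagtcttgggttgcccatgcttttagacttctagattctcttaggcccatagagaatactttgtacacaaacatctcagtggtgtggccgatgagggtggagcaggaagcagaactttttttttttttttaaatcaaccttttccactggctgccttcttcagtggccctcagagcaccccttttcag
The capitals are an E-box in Gimap8, a STAT site and an ETS core in Gimap6, and 2 ETS cores with an E-box in Gimap5. Gimap3 had no match to any of these motifs in its window.

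No single motif was found in all members. Of the 8 windows, 4 held an E-box (Gimap8, Gimap9, Gimap7 and Gimap5), against 44.8% of the 32851 windows in the table. The RUNX core was in 3 (Gimap4, Gimap7 and Gimap1; 14% of all windows), the ETS core in 2 (Gimap6 and Gimap5; 19.7%), the CHR element in 2 (Gimap9 and Gimap7; 16%) and the STAT site in 1 (Gimap6; 7.02%). The window of the second start listed for Gimap8, which is not among these 8, held a STAT match and no other. The E2F spellings (1.86% of all windows), the GATA core (9.99%) and the interferon element (2.98%) matched 0 of the 8. A match describes the letters in these windows, and neither a match nor its absence shows whether a factor binds.

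Genes with profiles over the 4 arrays most like that of Gimap8 were found by the root mean square distance between values centred on each gene's mean. The nearest 5 with a gene name were Chid1 (distance 0.0742 on the log2 scale), the zinc finger gene Zfp583 (0.0951), the histone deacetylase gene Hdac9 (0.111), the palmitoyltransferase gene Zdhhc24 (0.113) and the kinesin gene Kif1b (0.123). All 5 had log2 differences between -0.88 and -0.81, and a difference near that of Gimap8 follows from the choice by distance. As the mean of their probe sets Chid1 was at -0.60, Hdac9 at -0.39, Zdhhc24 at -0.35 and Kif1b at -0.20. Gimap5 (0.181) and Gimap1 (0.188) were the closest of the family, at ranks 46 and 54 among all genes, and Gimap3 (0.473) was the farthest, at rank 5600. The other members ranked between 349 and 2304. Only 4 arrays enter each distance.

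Proteins that GIMAPs are reported to bind or act beside, the BCL2 family and the autophagy machinery, lay on both sides of 0. Of 15 listed genes 14 had a value, 4 above 0 and 10 below 0, with a median of -0.05 and 0 past limma's threshold or at an unadjusted p under 0.05. The lowest p belonged to the brightest probe set of the BH3-only death gene Bcl2l11 (log2 difference 0.48, SE 0.19), then to Gabarapl1 (-0.78, SE 0.36) and the autophagy initiation gene Becn1 (-0.28, SE 0.17). Bcl2l11 was at -0.02 when gene-specific probe sets were preferred and at -0.03 as the mean of its probe sets. As such a mean Becn1 was at -0.12. Gabarapl1 measured 9.48 and 9.91 in deficient HSC and 10.96 and 9.99 in wild type HSC, with wild type pool 1 well above the rest.

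Since GIMAP genes are best known from lymphoid cells, markers of the lymphocyte lineages were set beside them. Of 20 T cell markers listed 17 had a value, 12 above 0 and 5 below 0, with a median of 0.08 that ran from -0.03 to 0.19 with a pool left out. The mean log2 level of the list was 5.80 and 5.67 in deficient HSC and 5.56 and 5.66 in wild type HSC. Thy1 was the highest (1.14, SE 0.43; 0.50 without wild type pool 2), with Lat (-0.28, SE 0.18) and Cd28 (-0.24, SE 0.16) below 0. NK cell markers had 8 of 11 above 0 and a median of 0.07, with Il2rb at 0.32 (SE 0.14), Gzmb at 0.24 (SE 0.14) and Tbx21 at 0.24 (SE 0.21), or -0.01 without deficient pool 1. Their mean level was 5.42 in both deficient pools and 5.23 and 5.41 in wild type HSC. B cell markers had 9 of 11 above 0 and a median of 0.26, or 0.03 without deficient pool 1 or without wild type pool 1. The lowest p belonged to the immunoglobulin gene Ighm (0.67, SE 0.19; 0.13 with gene-specific probe sets preferred), Ebf1 (0.62, SE 0.32; 0.23 without deficient pool 1) and Ms4a1 (0.37, SE 0.21; 0.16 without wild type pool 1). Their mean level was 6.78 and 6.33 in deficient HSC and 5.98 and 6.56 in wild type HSC, which overlap. Of the genes named here, Cd28, Il2rb, Gzmb, Tbx21, Ebf1 and Ms4a1 were dim, at 6.02 or less in every pool. The array medians ran from 5.94 to 6.02, and no detection call was used.

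Genes of lymphoid-primed progenitors showed both signs, 8 of 14 above 0 with a median of 0.14, which turned to -0.07 without deficient pool 1, and to -0.14 on leaving out wild type pool 1. Lymphotoxin beta (Ltb) lay with the GIMAP genes at 8.93 and 8.84 against 9.47 and 9.60 (-0.65, SE 0.15). Ighm, on this list too, and the recombinase gene Rag2 (0.39, SE 0.16, dim at 5.0 or less in every pool) lay on the other side. Endothelial markers had 8 of 15 above 0 and a median of 0.04, or -0.15 without wild type pool 1. Tie1 was the lowest (-1.54, SE 0.53; -0.79 without wild type pool 1), with wild type pools at 7.85 and 6.34. Emcn stood at -0.41 (SE 0.26; -0.06 without wild type pool 2) and Plvap at 0.35 (SE 0.23; 0.05 without wild type pool 1). The mean level of the endothelial list was 6.75 and 6.82 in deficient HSC and 6.80 and 6.96 in wild type HSC.

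Genes that define the sorted population were mixed. Of 15 HSC gate and identity markers 14 had a value, 6 above 0 and 8 below 0, with a median of -0.09, or 0.06 without deficient pool 1. Procr, which encodes EPCR, a surface marker of long-term stem cells, measured 10.05 and 10.03 in deficient HSC and 10.74 and 11.03 in wild type HSC (-0.85, SE 0.17). The transcription factor gene Mecom differed by -0.69 (SE 0.16; -0.32 as the mean of its probe sets) and Cd34 by -0.76 (SE 0.24; -0.47 without wild type pool 1). Ctnnal1, on the same list and chosen after its values were seen, went the other way (0.75, SE 0.24). It measured 8.33 and 8.95 in deficient HSC and 7.79 and 7.99 in wild type HSC. Of the gate itself, Slamf1 (CD150) stood between 8.81 and 9.90 in all pools, Cd48 between 5.84 and 7.09, and Kit between 9.94 and 11.09. Slamf1 differed by 0.24 (SE 0.40), Cd48 by -0.03 (SE 0.42) and Kit by -0.59 (SE 0.28), and the pools of Slamf1 and Cd48 overlap between the groups. For Kit the groups stood 0.03 apart at their closest, and averaging its probe sets gave -0.03. Over the pools left out Slamf1 ran from -0.28 to 0.76, Cd48 from -0.66 to 0.59 and Kit from -0.90 to -0.28. Blood transcription factors had 8 of 19 above 0 and a median of -0.01, with Mecom as above, Meis1 at -0.62 (SE 0.26) and Erg at -0.71 (SE 0.31) having the lowest p. Meis1 turned to 0.49 with gene-specific probe sets preferred and to 0.10 as the mean of its probe sets, and Erg was at -0.37 without wild type pool 1.

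Genes listed as mature neutrophil markers mostly lay in the opposite direction. The name is that of the list, and the cells or stages these transcripts came from were not tested. Of 14 listed 12 had a value, 11 above 0, with a median of 0.80, which was 0.37 without wild type pool 1 and 1.31 without wild type pool 2. Both deficient pools lay above both wild type pools for 7 of the 12 (17.0% of all genes) and below them for 0 (18.5%). Csf3r (-0.29, SE 0.26) and Il1b (0.04, SE 0.23), chosen after their values were seen, did not share the rise. The mean log2 level of the list was 10.55 and 9.81 in deficient HSC and 9.08 and 9.60 in wild type HSC. Mmp8 was at 9.36 and 7.49 against 6.0 and 6.37 (2.24, SE 0.60; 1.31 without deficient pool 1), Mmp9 differed by 1.56 (SE 0.52; 0.76 without deficient pool 1) and Cd177 by 0.77 (SE 0.18). The part of these transcripts in the GIMAP values was not tested. In pooled sorted cells, fewer GIMAP-expressing cells and less GIMAP RNA per cell cannot be told apart. By limma 0 genes of any of these lists passed over all genes.

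**Figure D5:**
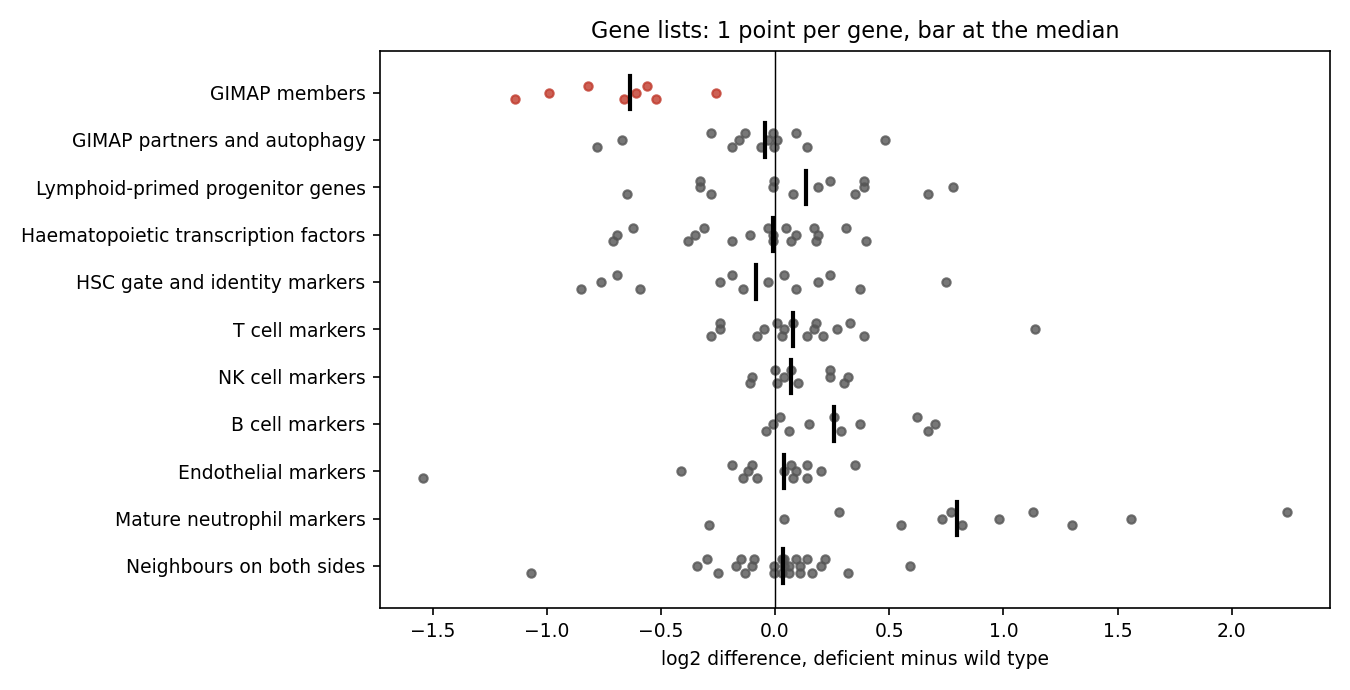
Log2 difference, deficient minus wild type (horizontal axis), of each gene in the lists named on the vertical axis, 1 point per gene with a black bar at the list's median. The GIMAP members lie wholly below 0 with a median of -0.64, the neutrophil markers mostly above 0 with a median of 0.80, and the medians of the other lists lie between -0.09 and 0.26.

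Other facts of the libraries bear on all of these values. Array medians ran from 5.94 to 6.02. Of the genes that differ by label, Rbl2 (p130) measured 7.82 and 8.21 in deficient HSC and 8.94 and 8.75 in wild type HSC (-0.83, SE 0.19), while Rb1 differed by 0.29 (SE 0.16). Whether these probe sets lie within the deleted parts is unstated, so they do not check the labels. The Actb control probe sets, where a wider 3′ minus 5′ gap marks more degraded or shorter RNA copies, had gaps of 3.13 and 2.95 in deficient HSC and 2.32 and 2.81 in wild type HSC. The same gap for Gapdh was 2.79 and 2.50 in deficient HSC and 2.40 and 2.58 in wild type HSC, which overlap. Y-linked Kdm5d stood at 6.12 and 7.86 in deficient HSC against 8.26 and 8.37 in wild type HSC. Y-linked Eif2s3y (8.50 and 9.64 against 9.93 and 10.29) and Uty (5.11 and 6.48 against 6.90 and 6.68) were also lower in both deficient pools. All of these Y-linked genes were lowest in deficient pool 1, and the sex of the animals is unstated. The part of the RNA gaps or of a difference in sex in the GIMAP differences was not tested.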

How the data were processed

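The deposited table holds log2 expression values for 45101 probe sets on 4 arrays. The authors made them with RMA, per the submitters' processing notes, which name RMA and limma without versions. RMA sets all arrays to nearly the same distribution and compresses the folds of dim probe sets. The scale follows from their range, 2.65 to 14.91. No scanner file or detection call was used here, and the number of arrays limits the precision.

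The platform annotation gave exactly 1 symbol to 34945 probe sets and several to 932, with 9160 unlisted and 64 controls. Symbols were updated by Entrez ID through the RefSeq gene table (34741 matched). Each of 18193 genes took the probe set with the highest mean, with no filter on dim values. Differences are Rb family deficient minus wild type from limma 3.58.1 (lmFit, eBayes, no block) in R 4.3.3, with SE the moderated standard error and Benjamini-Hochberg adjustment over all genes at 0.05. Differences of second probe sets come from the same fit over all probe sets. The fit was also run on simulated data to check the code, and no result here rests on that run.

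Members and lists were chosen with earlier results of these data known. Named genes were all members, Rb1, Rbl2, Slamf1, Cd48, Kit, 5 neighbours with a value on each side, the 5 nearest profiles to Gimap8 (predicted genes and clones passed over) and the 3 lowest p in each list. The lists were GIMAP partners and autophagy, lymphoid-primed progenitors, blood transcription factors, HSC gate and identity, and T, NK, B, endothelial and mature neutrophil markers; several genes are on more than 1 list. Same-numbered pools share only a number, and their deviations from the group means had a correlation of -0.188 over genes.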

Additional observations from a re-analysis of the deposited data

How the results depend on the processing

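The settings tried were other choices of probe set, median centring, repeated quantile normalization, genes in the upper part by mean, an intensity trend, the replicate number as a block, and each pool left out. Limma called 0 genes higher and 0 lower in all of them. The unadjusted counts, 399 higher and 735 lower at first, were 297 and 1015 with median centring, 524 and 534 with quantile normalization repeated, 480 and 575 with an intensity trend, 176 and 408 among the genes at or above the median level, and, on leaving out a pool, 244 and 317 (deficient 1), 356 and 709 (deficient 2), 403 and 598 (wild type 1) or 689 and 1082 (wild type 2).

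The median difference of the members ran from -0.83 (without wild type pool 1) to -0.58 (without wild type pool 2) with a pool left out. Over the other settings it ran from -0.69 (median centring) to -0.55 (quantile normalization repeated), and was -0.56 as the mean of each gene's probe sets. Of the 8 members, 7 stayed below 0 in each setting that gave a value. As the groups of these 7 did not overlap, leaving out a pool could not turn their sign. Gimap3 ran from -0.55 to 0.03 over the pools left out, above 0 when deficient pool 1 was the one omitted. Averaging each gene's probe sets put Gimap6 at -0.56 and Gimap7 at -0.05, and preferring gene-specific probe sets put Gimap4 at -0.41. Gimap7 had no value among the genes in the upper part by mean. Between 4 and 7 members were at an unadjusted p under 0.05. Of 47 other named genes, with Ctnnal1, Csf3r, Il1b and Tra2a not counted, 13 changed sign in some setting.

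With the replicate block limma called 0 genes, its unadjusted counts were 281 higher and 457 lower, and 7 members were at an unadjusted p under 0.05. Pairing by crossed numbers, chosen after seeing the data, gave 0 calls and unadjusted counts of 518 higher and 1151 lower. The design, with 2 pools per group, limits what could pass over all genes.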
